A study of Mus musculus with 6 samples.

Results

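The Notch pathway was described in whole-liver RNA of mice through 10 genes, found in the count table by their symbols and chosen with earlier results of these data known: the receptors Notch1, Notch2, Notch3 and Notch4, the ligands Jag1, Jag2 and Dll4, and the target genes Hes1, Hey1 and Heyl. All 10 were found among the 55416 gene rows of the deposited count table and all 10 passed the filter on low counts. KO libraries (n = 3) came from livers of male mice with floxed Ephb2 and the Pdgfrb-CreERT2 driver. That driver is a tamoxifen-dependent Cre expressed from the Pdgfrb promoter in stellate and other mesenchymal cells. WT libraries (n = 3) came from livers of male mice with floxed Ephb2 and no Cre. All mice received tamoxifen by injection on 5 consecutive days at 8 to 10 weeks of age. They then ate a choline-deficient, amino-acid-defined diet for 8 weeks, with 45% of calories as fat, 0.1% methionine and 1% cholesterol, which leads to a fatty, inflamed and scarred liver. Because no group carried Cre without floxed Ephb2, an effect of Cre and one of the deletion cannot be told apart.

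Notch receptors sit in the cell membrane and bind ligands on a neighbouring cell. Binding lets an ADAM protease and then gamma-secretase cut the receptor, and its freed inner part enters the nucleus and joins RBPJ and a Mastermind protein on DNA. Genes of the Hes and Hey families, which encode repressors, are their best known targets. In liver the pair Jag1 and Notch2 directs the formation of bile ducts, and mutation of either gene in people causes Alagille syndrome, with too few ducts. Dll4, Notch1 and Notch4 act in endothelium, and Notch3 in smooth muscle, pericytes and stellate cells.

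Promoter windows are shown for 4 genes: Jag1 and Notch2, whose levels did not overlap between the genotypes, and Dll4 and Notch4, whose highest level lay in the same library. RefSeq on GRCm38.p6 held windows for 7 of the 10 genes, and not for Hes1, Hey1 or Heyl. The sequences run 5′ to 3′ on the gene's strand, start 250 bases before the RefSeq start site and end before the first annotated exon base. Capitals mark CACGCG or its reverse complement CGCGTG, a site that Hes and Hey repressors can bind. Jag1 lies at chr2:137116645-137116770 on the minus strand, Notch2 at chr3:98013288-98013526 on the plus strand, Dll4 at chr2:119325534-119325783 on the plus strand and Notch4 at chr17:34564045-34564267 on the plus strand.
Jag1: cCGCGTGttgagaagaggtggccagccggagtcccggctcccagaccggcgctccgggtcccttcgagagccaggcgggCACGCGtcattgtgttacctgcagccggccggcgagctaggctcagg
Notch2: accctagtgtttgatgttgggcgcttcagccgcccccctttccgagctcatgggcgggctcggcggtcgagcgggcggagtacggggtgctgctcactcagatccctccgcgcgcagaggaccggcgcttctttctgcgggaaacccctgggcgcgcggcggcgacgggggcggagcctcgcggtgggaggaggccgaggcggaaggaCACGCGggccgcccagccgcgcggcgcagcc
Dll4: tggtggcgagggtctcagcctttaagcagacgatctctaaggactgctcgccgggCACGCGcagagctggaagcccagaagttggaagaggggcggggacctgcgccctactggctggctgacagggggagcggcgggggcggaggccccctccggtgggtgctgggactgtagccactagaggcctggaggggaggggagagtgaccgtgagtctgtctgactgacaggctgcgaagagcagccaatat
Notch4: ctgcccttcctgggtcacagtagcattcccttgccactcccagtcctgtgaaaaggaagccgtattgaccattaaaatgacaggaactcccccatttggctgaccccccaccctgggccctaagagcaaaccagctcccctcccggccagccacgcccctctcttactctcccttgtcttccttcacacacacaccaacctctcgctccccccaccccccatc
On both strands, CACGCG was found in 3 of the 7 windows of 250 bases, those of Jag1, Notch2 and Dll4, and in 7.62% of 32851 promoter windows of the same length. The E-box CACGTG was in 0 of the 7, against 6.02% of all windows. The core that RBPJ binds, TGGGAA, was in 0 of the 7, against 21.6% of all windows. Of other pathway genes with windows, TGGGAA was in those of the targets Hes5 and Hey2 and of Rbpj itself. It was in none of the windows of Nrarp, a further target, or of Dtx1, Dll1, Furin and Tle2. No match overlapped another, and a match describes letters, not binding.

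Total counts per library ran from 21160690 to 26339251. Ephb2, the targeted gene, stood at 6.01, 8.87 and 6.95 CPM (counts scaled to library size, with TMM factors) in KO libraries, against 9.46, 8.28 and 12.4 CPM in WT libraries. The genotypes overlapped, and edgeR's quasi-likelihood test did not call the difference (log2 fold change -0.46, 95% interval -0.94 to 0.01, adjusted p = 0.850). Cells without Pdgfrb promoter activity keep the gene, so this value checks the labels only weakly. The tissue label was checked on albumin (Alb), the main secreted protein of hepatocytes, which was at 32565 to 42996 CPM in KO and 38946 to 41820 CPM in WT libraries. Acute phase RNA split the libraries within each genotype: the summed CPM of 10 such genes was 7894, 23218 and 7019 in KO and 15240, 6865 and 18944 in WT replicates 1 to 3. In whole tissue, fewer cells of a type and less RNA per cell cannot be told apart.

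Per exon length, Notch2 was the most abundant of the 10 genes and Jag2 the least. In CPM per kilobase of exon, Notch2 averaged 23.9 ± 1.10 (SD over all 6 libraries), 2.77 times the next gene, Hes1 (8.62 ± 1.24). Jag1 (7.67 ± 0.93) and Notch1 (6.66 ± 0.56) followed. Hes1, Jag1 and Notch1 overlapped their neighbours in this order across libraries and cannot be ranked among themselves. Below a gap of 2.44 times came Dll4 (2.72 ± 1.09), Notch4 (1.87 ± 0.64), Heyl (1.67 ± 0.45), Notch3 (1.64 ± 0.21) and Hey1 (1.04 ± 0.17), again with each overlapping its neighbour. Jag2 stood apart at 0.192 ± 0.064. With the longest transcript as the length, Notch1 took a level of 9.98 and passed Jag1.

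**Figure D1:**
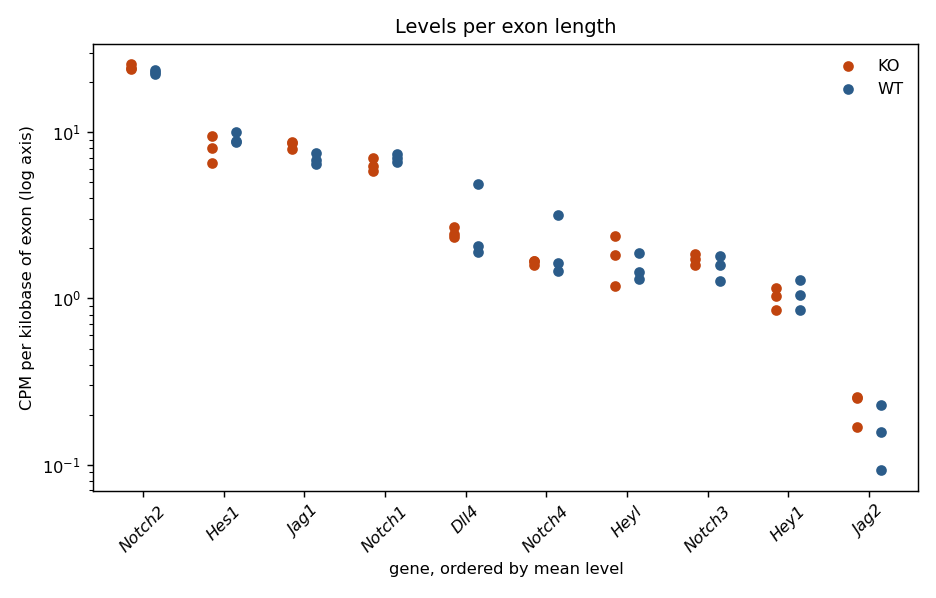
Level of each gene in CPM per kilobase of merged exons, on a log axis, in the 3 KO libraries (left of each pair) and the 3 WT libraries (right), with genes ordered by their mean over all 6. Notch2 stood above and Jag2 below all other genes in every library, while Hes1, Jag1 and Notch1 overlapped.

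No gene of the 10 differed between the genotypes past the threshold. edgeR's quasi-likelihood test called 0 of the 10 at an adjusted p under 0.05, as it called 0 of the 17083 genes tested (0%), with adjusted p from 0.850 to 0.954. At an unadjusted p under 0.05 stood 1 of the 10, Jag1, where 5.19% of all tested genes did. DESeq2 and limma-voom also called 0 of the 10, each with Jag1 alone at an unadjusted p under 0.05. DESeq2 gave no adjusted p for Jag2, which it could therefore not call. Levels in KO and WT libraries were fully separate for 2 of the 10, Jag1 and Notch2, both higher in KO, against 11.1% of tested genes in either direction and 6.21% higher in KO. Of the 10 log2 fold changes, 5 were positive and 5 negative, with a median of 0.01, beside -0.0048 over all tested genes. Without WT replicate 3 the count of the 10 called was 0 as well, with 1 at an unadjusted p under 0.05.

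**Figure D2:**
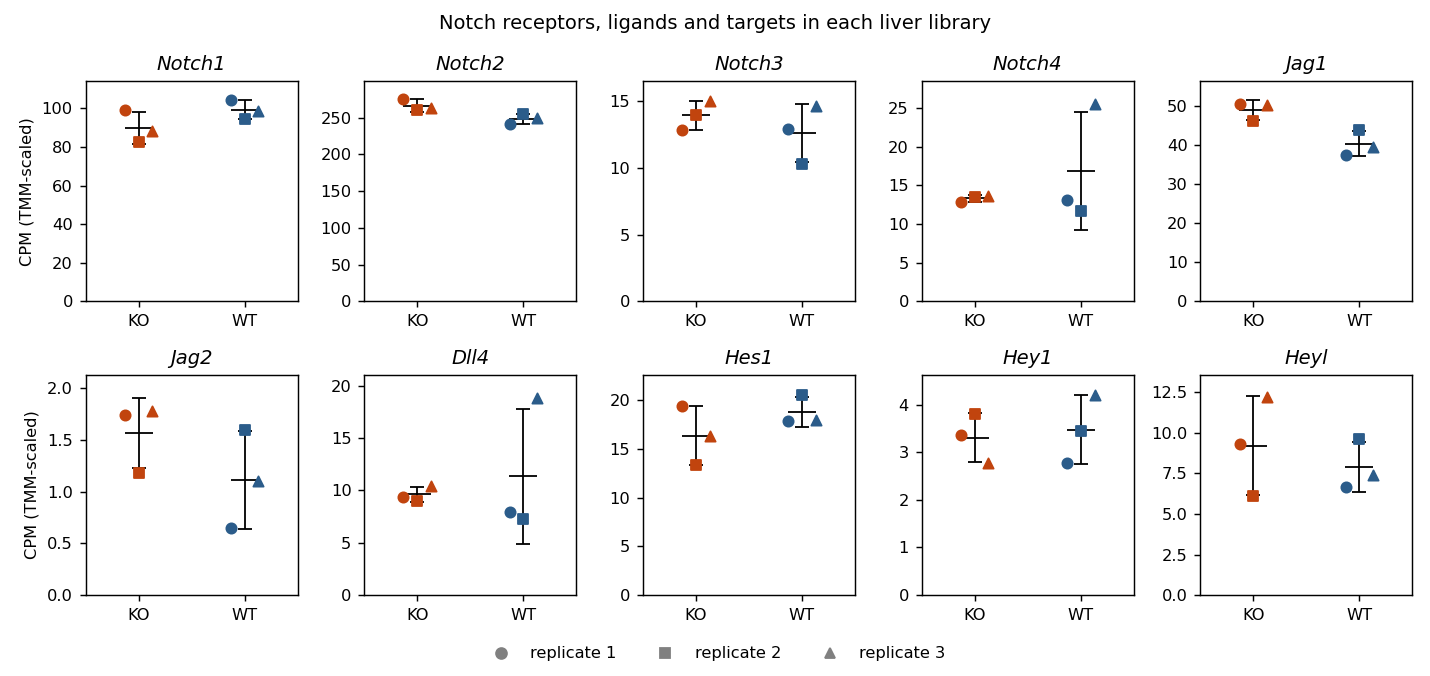
CPM (TMM-scaled) of the 10 genes in each library, KO left and WT right, with each replicate as its own marker and bars for the mean and SD of 3 libraries. The genotypes separate for Jag1 and Notch2, and WT replicate 3 stands far above the other libraries for Notch4 and Dll4.

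Among the receptors, Notch2, the receptor of the bile duct programme, lay at 276, 259.9 and 263 CPM in KO libraries, against 242, 255 and 249 CPM in WT libraries. Every KO library lay above every WT library, by a small step. The means were 266 ± 8.51 CPM in KO and 249 ± 6.64 CPM in WT (SD, n = 3 each), a log2 fold change of 0.10 (95% interval -0.12 to 0.31) that was not called (edgeR adjusted p = 0.861). Notch2 spans positions 98013527 to 98150361 of chromosome 3 (GRCm38), with up to 34 exons in a transcript. Its exons share 541 bases with Gm42820 on the same strand, which held 503 counts in all libraries against 35254 for Notch2.

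Notch1, which acts in endothelium and in many progenitor cells, lay at 99.1, 82.7 and 88.5 CPM in KO libraries, against 105, 94.6 and 98.9 CPM in WT libraries. The ranges overlapped, with KO replicate 1 level with the WT libraries. The log2 fold change was -0.14 (95% interval -0.36 to 0.08, edgeR adjusted p = 0.850). The gene spans 26457903 to 26516663 of chromosome 2. Its exons share 1068 bases with 0610009E02Rik on the opposite strand, which held 132 counts in all libraries against 12873 for Notch1.

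Notch3, the receptor of mural and stellate cells, lay at 12.8, 13.95 and 15.02 CPM in KO libraries, against 12.9, 10.3 and 14.6 CPM in WT libraries. The ranges overlapped, with WT replicate 2 lowest and KO replicate 3 highest (log2 fold change 0.14, 95% interval -0.20 to 0.49, edgeR adjusted p = 0.872). Without WT replicate 2, its lowest library, the value was 0.01, and without WT replicate 3 it was 0.26. Pdgfrb, the gene whose promoter drives the Cre, stood at 68.0, 68.0 and 84.6 CPM in KO and at 55.4, 95.3 and 49.6 CPM in WT libraries.

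Notch4, a receptor largely of endothelial cells, was at 12.8, 13.5 and 13.6 CPM in KO libraries, against 13.2, 11.7 and 25.6 CPM in WT libraries. The 3 KO libraries and WT replicates 1 and 2 were close together, and WT replicate 3 alone was high. The log2 fold change was -0.34 (95% interval -0.97 to 0.30, edgeR adjusted p = 0.858), and without WT replicate 3 it was 0.10. As a share of the summed per-length level of the 4 receptors, Notch2 made up 71.4 to 72.3% in KO and 65.9 to 71.6% in WT libraries. Notch1 made up 17.4 to 19.5% in KO and 19.8 to 22.3% in WT libraries. These ranges nearly touched, depend on the level of Notch2 as well, and have no matching share over all genes. The CPM of Notch1 itself overlapped between the genotypes.

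Among the ligands, Jag1 showed the clearest separation. It was at 50.5, 46.1 and 50.4 CPM in KO libraries, against 37.6, 43.9 and 39.6 CPM in WT libraries. All 3 KO libraries lay above all 3 WT libraries, with WT replicate 2 nearest to them. The means were 49.0 ± 2.52 CPM in KO and 40.3 ± 3.21 CPM in WT (SD, n = 3 each), a 1.21-fold difference (log2 fold change 0.28, SE 0.09, 95% interval 0.07 to 0.49). Its unadjusted p in edgeR's test was 0.0150, and over all genes it was not called (adjusted p = 0.850). The log2 fold change ranged from 0.23 without WT replicate 1 to 0.34 without WT replicate 2, and with the acute phase level as a covariate it was 0.26. Jag1 spans 137081456 to 137116644 of chromosome 2.

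Bile duct markers also lay higher in KO libraries. Log2 fold changes were above 0 for 13 of 13 such genes, at a median of 0.38, but edgeR's test called none of them. Over all tested genes, 8374 of 17083 were above 0. Markers of a cell type in the same livers can move together, so the 13 are not independent observations. Their list was chosen with earlier results of these data known. An unadjusted p under 0.05 was reached by 6 of the 13, beside 5.19% of all tested genes, and none of the 13 was at 0 in any library. Their summed level was 1488, 1831 and 1806 CPM in KO libraries, against 1061, 1449 and 1322 CPM in WT libraries. WT replicate 1 was lowest for the sum and for most of the 13 markers, as it was for Jag1 and Notch2. The sum of WT replicate 2 came close to that of KO replicate 1. Every KO sum lay above every WT sum. By gene, 4 of the 13 were separate between the genotypes, all higher in KO, beside 6.21% of all tested genes. Spp1, the gene of osteopontin, made up most of the sum, at 803, 1166 and 970.3 CPM in KO libraries, against 613, 805 and 834 CPM in WT libraries, and it overlapped. Krt19, a keratin of duct cells, was at 18.9, 19.1 and 22.1 CPM in KO and at 13.02, 17.6 and 15.6 CPM in WT libraries. The part of duct RNA in the Jag1 and Notch2 values was not tested.

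Dll4, the ligand of sprouting and arterial endothelium, was at 9.41, 9.02 and 10.4 CPM in KO libraries, against 7.97, 7.31 and 18.8 CPM in WT libraries. WT replicate 3 stood far above the other 5 libraries, and WT replicates 1 and 2 were below all KO libraries. With all libraries the log2 fold change was -0.24 (95% interval -1.02 to 0.54, edgeR adjusted p = 0.897), and without WT replicate 3 it was 0.33 (adjusted p = 0.990). The gene spans 119325784 to 119335962 of chromosome 2.

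Most endothelial markers were highest in the same library. WT replicate 3 was the highest of the 6 libraries for 7 of 11 vascular and 9 of 10 sinusoidal endothelial markers, for 10 of 10 Kupffer cell and macrophage markers, and for 4094 of the 17083 tested genes. The summed vascular markers were at 246, 272 and 265 CPM in KO libraries, against 222, 239 and 374 CPM in WT libraries. The summed sinusoidal markers were at 948, 991 and 765 CPM in KO libraries, against 915, 872 and 1295 CPM in WT libraries. No marker of either list was at 0. The part of endothelial RNA in the Notch4 and Dll4 values was not tested.

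**Figure D3:**
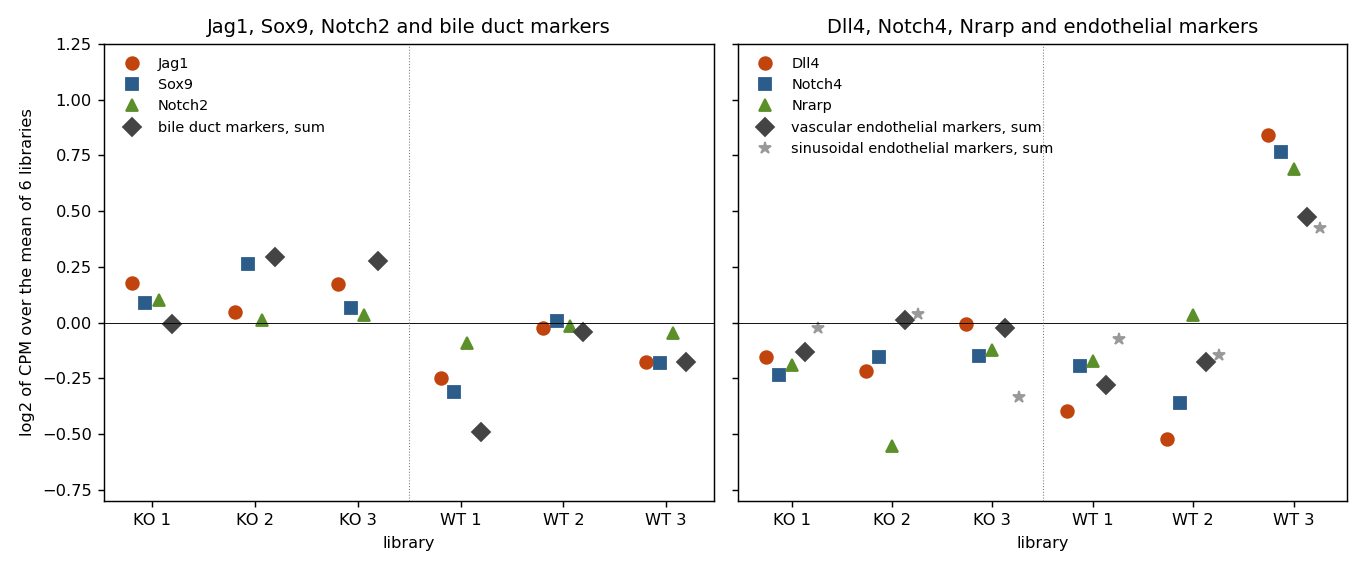
Log2 of each library's CPM over the mean of all 6 libraries, KO libraries left of the dotted line and WT libraries right of it, for single genes and for summed marker lists. Jag1, Sox9, Notch2 and the bile duct sum lie higher in KO libraries, while Dll4, Notch4, Nrarp and both endothelial sums peak in WT replicate 3.

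Jag2, a ligand close in sequence to Jag1, was scarce, with 40, 31 and 40 counts in KO libraries and 13, 38 and 23 counts in WT libraries. The ranges overlapped, and the log2 fold change of 0.47 had a wide 95% interval of -0.35 to 1.29 (edgeR adjusted p = 0.851). Without WT replicate 1 it was 0.20, and without WT replicate 2 it was 0.83. Jag1 held 74.5 to 76.3% of the summed per-length level of the 3 ligands in KO libraries. In WT libraries it held 74.9, 78.0 and 57.4%, the last in WT replicate 3, where Dll4 reached 41.3%.

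Among the targets, Hes1, the repressor most widely used as a readout of Notch, was at 19.4, 13.3 and 16.3 CPM in KO libraries, against 17.8, 20.5 and 18.0 CPM in WT libraries. The KO libraries spread around and below the WT range, with KO replicate 2 lowest. The means were 16.3 ± 3.02 CPM in KO and 18.8 ± 1.52 CPM in WT (SD, n = 3 each), a log2 fold change of -0.20 (95% interval -0.55 to 0.14, edgeR adjusted p = 0.851). Without KO replicate 2 it was -0.08, and without KO replicate 1 it was -0.34 with an unadjusted p of 0.0490 and no call. With the acute phase level as a covariate it was -0.26, also without a call.

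Hey1, a repressor of vascular cells, was at 3.35, 3.79 and 2.76 CPM in KO libraries, against 2.77, 3.44 and 4.21 CPM in WT libraries. The ranges overlapped, with WT replicate 3 again highest. The log2 fold change was -0.07 (95% interval -0.58 to 0.44, edgeR adjusted p = 0.954) and changed sign without WT replicate 3 (0.09) and without KO replicate 3 (0.04). Heyl, a relative active in smooth muscle and pericytes, was at 9.32, 6.10 and 12.2 CPM in KO libraries, against 6.69, 9.62 and 7.41 CPM in WT libraries. Its KO libraries spread more widely than the WT libraries and held both its lowest and its highest value. Heyl was lowest in KO replicate 2 and WT replicates 1 and 3, the libraries with the highest acute phase sums. The log2 fold change was 0.22 (95% interval -0.38 to 0.81, edgeR adjusted p = 0.880), against -0.04 without KO replicate 3 and 0.44 without KO replicate 2. With the acute phase level as a covariate it was 0.10. Summed smooth muscle and pericyte markers were at 185, 187 and 173 CPM in KO and at 169, 194 and 282 CPM in WT libraries. Rgs5 made up most of each sum, at 124, 121 and 117 CPM in KO and 106, 134 and 210 CPM in WT libraries. Of those 10 markers, 4 stayed under 1 CPM on average, among them the contractile genes Cnn1 and Pln.

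**Figure D4:**
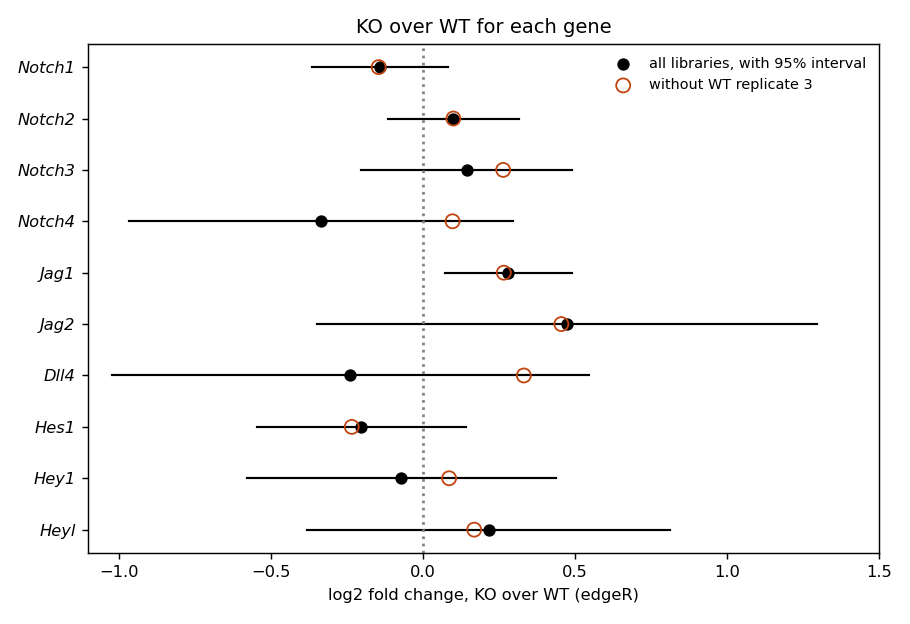
Log2 fold change of KO over WT from edgeR for each gene, with all libraries (filled points, 95% intervals) and without WT replicate 3 (open circles). The interval of Jag1 alone lies above 0 before adjustment, and Notch4, Dll4 and Hey1 change sign once WT replicate 3 is left out.

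A wider list of 53 pathway genes held 47 that passed the filter on low counts. edgeR's test called 0 of the 47, and the log2 fold changes were positive for 23 and negative for 24, with a median of -0.00051. An unadjusted p under 0.05 was reached by 2 of the 47, Dtx1 and Sox9, a share near the 5.19% of all tested genes. DESeq2 and limma-voom called 0 of them too, each with 3 at an unadjusted p under 0.05. KO and WT levels were separate for 4 genes higher in KO (Dtx1, Sox9, Tle2 and Dtx2) and 2 lower in KO (Furin and Hdac1), beside the 11.1% of all tested genes.

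Dtx1 encodes Deltex, a ubiquitin ligase that binds the inner part of Notch. It was at 2.92, 3.30 and 2.01 CPM in KO libraries, against 1.14, 1.39 and 1.48 CPM in WT libraries. The genotypes did not overlap, at 45 to 87 counts in KO and 23 to 33 counts in WT libraries. Its log2 fold change of 1.04 (SE 0.26, 95% interval 0.44 to 1.63) had an unadjusted p of 0.00378 in edgeR's test and an adjusted p of 0.850. Leaving out single libraries gave 0.88 to 1.21.

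Sox9, a transcription factor of bile duct cells that Notch can switch on, is also among the 13 duct markers. It was at 56.0, 63.1 and 55.1 CPM in KO libraries, against 42.4, 52.8 and 46.4 CPM in WT libraries. All KO libraries lay above all WT libraries (log2 fold change 0.30, 95% interval 0.05 to 0.54, edgeR adjusted p = 0.850). Nrarp, a feedback inhibitor induced by Notch in endothelium, was at 3.27, 2.54 and 3.43 CPM in KO libraries, against 3.32, 3.82 and 6.03 CPM in WT libraries. WT replicate 3 was highest here as well, and the log2 fold change of -0.51 (95% interval -1.11 to 0.09, edgeR adjusted p = 0.850) was -0.22 without it.

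Of the machinery that makes and cuts the receptors, Furin, the protease that processes them on their way to the membrane, was at 377, 337 and 318 CPM in KO libraries, against 426, 389 and 407 CPM in WT libraries. The genotypes did not overlap (log2 fold change -0.24, 95% interval -0.50 to 0.02, edgeR adjusted p = 0.850). The 9 genes of the ADAM proteases and gamma-secretase ranged in log2 fold change from -0.11 to 0.26, none called. Rbpj, the DNA-binding partner of all Notch receptors, was at 49.4, 54.0 and 57.0 CPM in KO and at 47.1, 47.0 and 50.1 CPM in WT libraries. KO replicate 1 lay below WT replicate 3, and the log2 fold change was 0.15 (95% interval -0.04 to 0.35, edgeR adjusted p = 0.850). Tle2, a Groucho co-repressor used by Hes proteins, was at 10.0, 11.2 and 12.1 CPM in KO libraries, against 9.11, 9.96 and 6.84 CPM in WT libraries (log2 fold change 0.36, 95% interval -0.02 to 0.74, edgeR adjusted p = 0.850).

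Of the remaining ligands and genes of the Hes and Hey families, some were well measured and some close to 0. Hes6, a Hes family gene, was at 13.9, 23.9 and 12.7 CPM in KO libraries, against 19.2, 13.4 and 14.4 CPM in WT libraries. The ranges overlapped, with KO replicate 2 highest (log2 fold change 0.11, edgeR adjusted p = 0.936). Dll1, a ligand related to Dll4, was at 7.80, 7.70 and 7.40 CPM in KO libraries, against 7.08, 8.28 and 4.78 CPM in WT libraries. The KO values lay inside the WT range (edgeR adjusted p = 0.877). Dll3 had 0 counts in every library, which allows up to 3 counts per library. Hes5 had 0 counts in each KO library and 0, 0 and 2 in the WT libraries, and Hey2 had 8, 9 and 8 counts in KO and 12, 7 and 5 in WT libraries, so neither was tested.

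**Figure D5:**
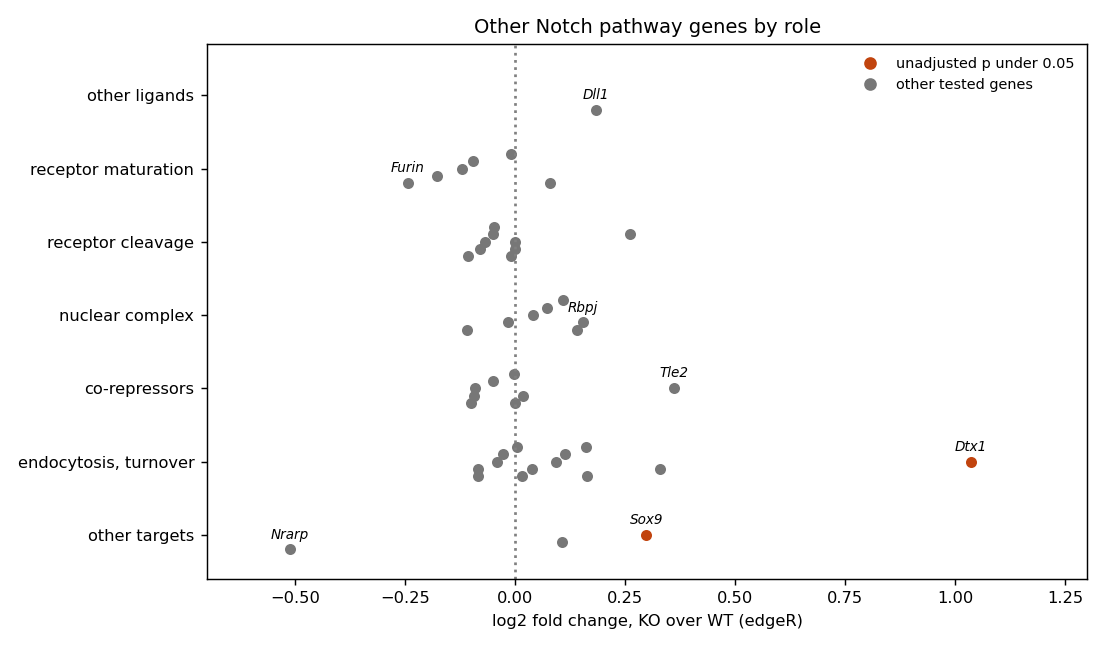
Log2 fold change of KO over WT for the 47 tested pathway genes, grouped by role, with unadjusted p under 0.05 in red and the genes described in the text named. Dtx1 and Sox9 are the red points, at 1.04 and 0.30, and Nrarp is lowest at -0.51. Hes6 stands in the group of other targets as a Hes family gene.

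By root mean square difference of centred log2 CPM over the 6 libraries, the nearest of 13054 genes to Jag1 were Agrn, the basement membrane proteoglycan agrin (0.038), and Wdr35, a part of the ciliary transport complex (0.040). Agrn was at 195, 176 and 196 CPM in KO libraries, against 145, 171 and 164 CPM in WT libraries. The nearest to Notch1 were Cox6b1, a subunit of cytochrome c oxidase (0.011), and Rab43, a small GTPase (0.017). Those nearest to Hes1 were Ccdc107 (0.031) and Acadl, an acyl-CoA dehydrogenase of fatty acid oxidation (0.044). These distances are a description over 6 libraries.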

How the data were processed

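Whole-liver RNA was enriched for poly(A) and made into 6 directional libraries, per the labels' protocols. For each Ensembl gene the authors deposited raw read counts in whole numbers, not normalized. The submitters' processing notes list STAR 2.7.6a, featureCounts 1.6.3 and DESeq2 1.30.0 as tools and GRCm38 and mm10 as builds, with no order. Neither annotation release nor strand setting was given in the sources used here, so antisense pairs may share reads. GENCODE M21 (GRCm38) gave symbols, places and exon lengths and matched 52135 of 55416 gene IDs (94.1%); the authors may have used another release.

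Differences were tested with edgeR 4.0.16 in R 4.3.3 (quasi-likelihood, TMM, genotype only) on the 17083 genes that passed filterByExpr at a minimum count of 10 and minimum total of 15. P-values were adjusted by Benjamini-Hochberg over all of them, with a threshold of 0.05. The procedure was also tested on simulated data. Those data held no acute phase split, so that check does not show how the procedure performs on these livers. Logged levels used a prior count of 2. Alternatives changed the scaling (3 ways), the count filter (2 ways), the tool (DESeq2 1.42.0; limma-voom, limma 3.58.1), the dispersion fit or the covariates, or left out a library. Library pairs differed beyond sampling noise (chi-square per degree of freedom 11.4 to 77.1). The labels do not say how replicates relate, so p-values reflect only how these samples vary, which may be technical.

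The 10 genes and all lists were chosen with earlier results of these data known. By rule the text names those 10, Ephb2, Rbpj, Dll1, Hes5, Hey2, Nrarp, Sox9, the 6 pathway genes with the smallest p, the sums of marker lists and those markers (Cnn1, Pln) needed to say which were near 0, and the 2 genes nearest in pattern to each of the 3 members with the smallest p. Pdgfrb, Krt19, Alb, Dll3, Dtx2, Hdac1, Hes6, Rgs5 and Spp1 were added after their values were seen. The remaining marker lists were summed in CPM as well. Stellate and other mesenchymal markers, with collagen genes as the largest part, were at 2834 to 3504 in KO and 2468 to 3632 in WT libraries. Kupffer cell and macrophage markers were at 952 to 1320 in KO and 1015 to 2194 in WT libraries. Sums for neutrophils were 31.5 to 78.9 in KO and 28.5 to 111 in WT libraries. For T and B cells they were 9.02 to 17.5 in KO and 10.7 to 13.3 in WT libraries. Hepatocyte markers were at 44365 to 59663 in KO and 52516 to 58257 in WT libraries.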

Additional observations from a re-analysis of the deposited data

How the results depend on the processing

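No gene of the 10 and none of the other pathway genes was called under any of the 16 alternatives run. For Jag2, DESeq2's Wald test gave no adjusted p. Over all genes, edgeR called 3 without a count filter, DESeq2's Wald test called 8, and leaving out single libraries gave 0 to 2, the 2 without WT replicate 3. Scaling by library size alone moved the median log2 fold change of all genes to 0.07 and the log2 fold change of Hey1 to 0.0052. Leaving out single libraries gave log2 fold changes of -0.54 to 0.10 for Notch4, -0.48 to 0.33 for Dll4, -0.22 to 0.086 for Hey1, -0.041 to 0.44 for Heyl and -0.011 to 0.36 for Dll1; the cause was not tested. Jag1 kept its sign in all 16, with adjusted p from 0.342 to 0.99979, and its unadjusted p was 0.0593 without WT replicate 1, 0.0518 without KO replicate 1 and 0.0509 without KO replicate 3. With the longest transcript as length, levels in CPM per kilobase were 9.98 for Notch1, 0.262 for Jag2, 12.0 for Hes1 and 1.40 for Hey1, since that length is shorter than the merged exons. The replicate number as a block made 0 calls; unadjusted p was under 0.05 for 537 genes, against 886 without the block; without single libraries that number was 452 (KO replicate 3) to 1858 (WT replicate 2). The labels do not state a pairing, so the numbers were not taken as pairs. Same-numbered libraries had correlations of -0.026, -0.438 and -0.313 between their deviations from the group means. Acute phase RNA also split the libraries within each genotype, so these correlations cannot decide whether libraries were paired. With 3 libraries a genotype, intervals as wide as that of Jag2 limit what could be seen.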
